A study of Mus musculus with 20 samples.

Results

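The 9 genes examined here were *Cybb*, *Cyba*, *Ncf1*, *Ncf4*, *Nox1* and *Nox4*, which encode subunits of the NADPH oxidases, and *Sod1*, *Sod2* and *Sod3*, which encode the superoxide dismutases (SODs). They were chosen by name from the 43422 genes with an expression value in every mouse, and all 9 were found.

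NADPH oxidases are membrane enzymes that pass electrons from NADPH to oxygen. The phagocyte enzyme is built around gp91phox (also called NOX2, encoded by *Cybb*) and p22phox (encoded by *Cyba*), and it makes superoxide once the cytosolic subunits p47phox (encoded by *Ncf1*) and p40phox (encoded by *Ncf4*), among others, and a RAC GTPase join it. NOX4, the oxidase known best from vascular smooth muscle and endothelium, needs p22phox but no cytosolic organizer and releases mainly hydrogen peroxide. SODs turn superoxide into hydrogen peroxide in the cytosol (SOD1), in mitochondria (SOD2) and outside the cell (SOD3), and the arterial wall is known for its high SOD3 content. In the vessel wall, Ang II is a classical stimulus of oxidase activity.

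RNA was sequenced from the abdominal aorta of 20 male mice on the C57Bl/6NCrl background (C57BL/6 in the labels), 5 in each of 4 groups, on day 14 of subcutaneous infusion by osmotic pump. WT mice and mice lacking *Plod1*, the gene of the collagen-modifying enzyme lysyl hydroxylase 1 (LH1), received either saline or Ang II at 1000 ng/kg per minute, and *Plod1* was inactivated in the whole animal, not in 1 cell type. The labels give an age of 6 months for every mouse, while the methods of the study give a younger age at the start of infusion. Expression was given as FPKM, fragments scaled to transcript length and to library size, so levels of different genes can be compared. The samples were whole vessel segments, so that fewer cells of a type and less RNA per cell cannot be told apart.

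*Plod1* was between 22.8 and 29.7 FPKM in the 10 WT libraries and at most 0.0415 FPKM in the 10 *Plod1*-/- libraries. Relative depth, estimated from the lowest values, ran from 0.900 to 1.10 of the median library, and no 2 libraries were duplicates. Although the study used males, *Xist*, an RNA of female cells, had 15.1 FPKM in replicate 5 of the saline-treated and 7.93 FPKM in replicate 1 of the Ang II-treated *Plod1*-/- mice, while the remaining 18 libraries held 0.0328 FPKM or less. The smooth muscle genes *Acta2* and *Myh11* were high in saline-treated WT aortas (14043 ± 2251 and 1177 ± 153 FPKM, SD, n = 5), and none of the 8 smooth muscle markers was at 0 in all mice. The sum of these 8 markers had a median of 15862 FPKM in saline-treated WT mice, so *Acta2* made up most of it. In Ang II-treated WT mice the summed FPKM of 7 brown adipocyte markers ran from 605 to 4830, against 28.4 to 436 in saline-treated WT mice. Mitochondrially encoded genes took 14.6% to 29.1% of the FPKM sum there, against 8.37% to 14.6% in saline-treated WT mice.

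In saline-treated WT aortas *Sod3* and *Sod1* were the most abundant of the 9 transcripts, and *Sod2* ranked below *Cyba* and *Nox4*. The mean FPKM was 666 ± 82.9 for *Sod3*, 407 ± 23.3 for *Sod1* and 19.1 ± 3.32 for *Sod2* (SD, n = 5 here and in the next sentence). Of the oxidase genes, *Cyba* stood at 85.3 ± 14.8, *Nox4* at 37.4 ± 10.1, *Ncf1* at 2.04 ± 0.410, *Ncf4* at 0.773 ± 0.207, *Cybb* at 0.448 ± 0.203 and *Nox1* at 0.0762 ± 0.0615. Neighbours in this order were separated in all mice except *Ncf4* and *Cybb*, whose ranges overlapped. In Ang II-treated *Plod1*-/- aortas the order was *Sod1*, *Sod3*, *Cyba*, *Sod2*, *Ncf1*, *Ncf4*, *Nox4*, *Cybb* and *Nox1*, and every neighbouring pair overlapped except *Cyba* and *Sod2*, and *Cybb* and *Nox1*. *Nox4* had thus moved from above to below *Sod2*, *Ncf1* and *Ncf4* in the order of the means.

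**Figure D1:**
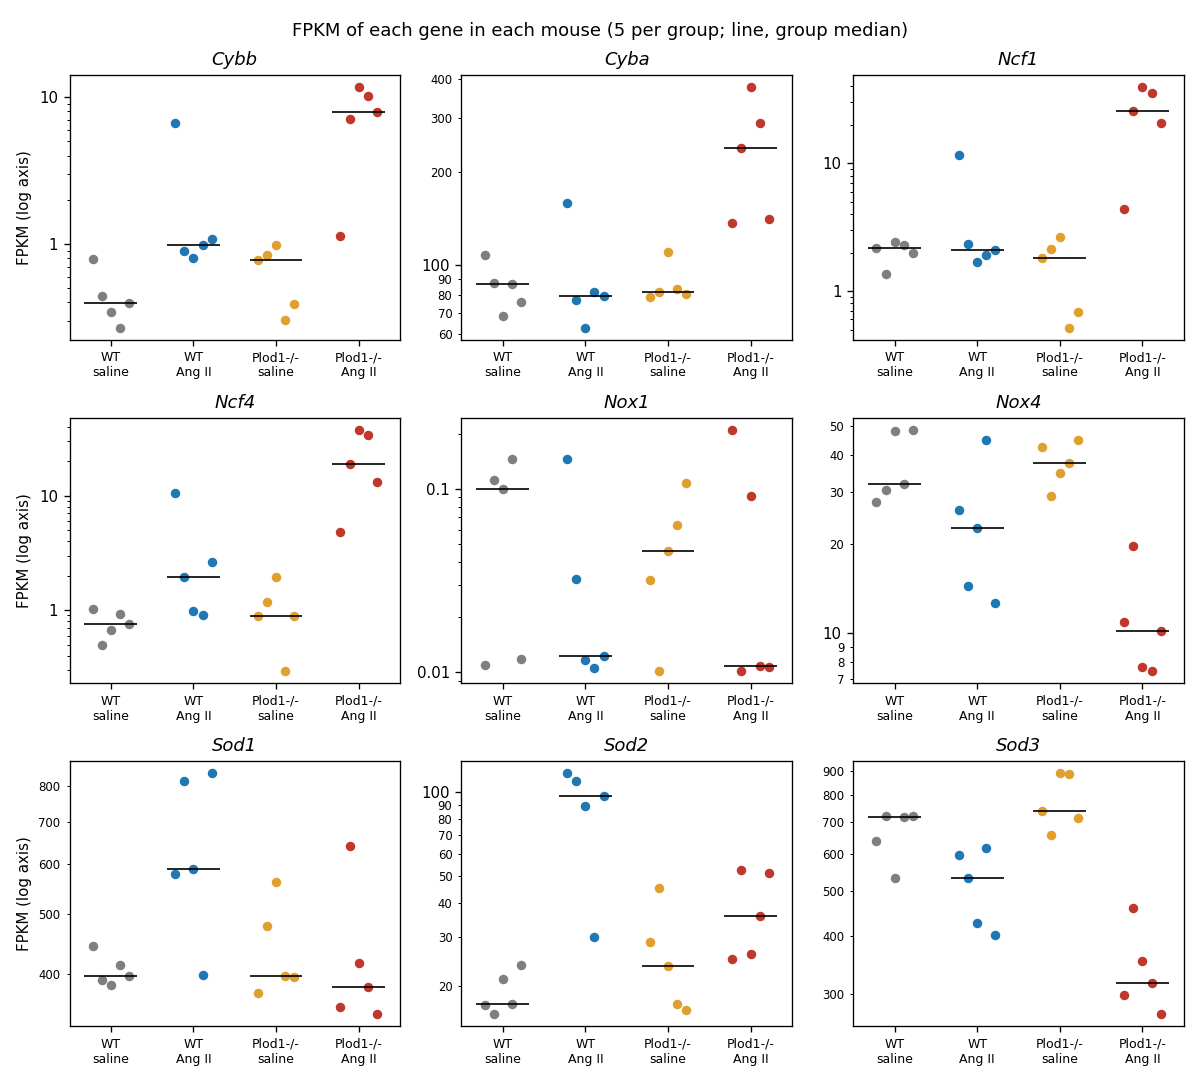
FPKM of the 9 genes in each mouse on log axes, with 1 panel per gene, 5 points per group from replicate 1 on the left to replicate 5 on the right, and a line at the group median. The highest WT Ang II point of *Cybb*, *Cyba*, *Ncf1* and *Ncf4* is replicate 1, and the lowest *Plod1*-/- Ang II point of these 4 genes is also replicate 1.

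Ang II raised all 4 tested genes of the phagocyte oxidase in *Plod1*-/- aortas and lowered *Nox4* and *Sod3*, while *Sod1* and *Sod2* did not pass the test. The test was limma on log2(FPKM + 1), where changes of low genes appear smaller than they are, among genes with at least 1 FPKM in at least 5 of the 10 mice. A gene was called where the Benjamini-Hochberg adjusted p-value over all genes tested was below 0.05 and the log2 fold change above 1 in size. Of the 9 genes, 8 were tested and 6 were called, 4 higher and 2 lower. Of the 12333 genes tested, 13.9% were called, 8.38% higher and 5.51% lower. *Cybb* passed the filter only through its values under Ang II, and *Ncf1* and *Ncf4* also needed those values to pass. The count of called genes includes them. The median log2 fold change of the 8 genes was 0.94, and that of all genes tested was 0.05. Quantile normalization moved the latter to -0.09 and the split of all calls from 1034 higher and 680 lower to 898 and 885, while the 6 genes stayed called. The groups did not overlap in the 6 called genes, as in 29.2% of all genes tested. For *Cybb* this followed from the filter, as no saline-treated mouse reached 1 FPKM. Without both libraries that held *Xist* RNA, *Cybb* no longer passed the filter, and of the 7 genes then tested 3 were called higher and 2 lower.

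*Cybb* (ENSMUSG00000015340, chromosome X, 9435252 to 9487771 of GRCm38, minus strand), the catalytic subunit, was at 0.773, 0.841, 0.977, 0.302 and 0.393 FPKM in saline-treated *Plod1*-/- replicates 1 to 5. Under Ang II it was at 1.13, 7.09, 11.7, 10.2 and 7.92 FPKM. Replicate 1 lay just above the saline range and the other 4 Ang II-treated mice far above it. All saline values were below 1 FPKM and all Ang II values above it, so *Cybb* passed the filter only through the Ang II-treated mice, and a gene admitted in this way had to differ. The mean was 11.6 times that under saline, and the log2 fold change was 2.17 (SE 0.42, adjusted p = 0.00209 by limma).

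*Ncf1* (ENSMUSG00000015950, chromosome 5, 134220053 to 134229625, minus strand), the organizer p47phox, was at 1.82, 2.12, 2.64, 0.517 and 0.691 FPKM under saline and at 4.39, 25.4, 39.6, 35.5 and 20.6 FPKM under Ang II. *Ncf4* (ENSMUSG00000071715, chromosome 15, 78244801 to 78262580, plus strand), the phosphoinositide-binding p40phox, was at 0.885, 1.18, 1.94, 0.295 and 0.883 FPKM under saline and at 4.83, 18.7, 37.4, 33.8 and 13.2 FPKM under Ang II. In both genes replicate 1 was again the lowest and replicate 3 the highest of the Ang II-treated mice, and no Ang II-treated mouse reached down to the saline range. The log2 fold changes were 3.15 for *Ncf1* (SE 0.51, adjusted p = 7.86e-04 by limma) and 3.24 for *Ncf4* (SE 0.47, adjusted p = 4.05e-04 by limma). *Ncf1* shares 4303 bases with *Gtf2ird2* on the opposite strand, and since the libraries did not mark strand its value is uncertain by what *Gtf2ird2* contributes. *Gtf2ird2* reached at most 3.17 FPKM in any mouse.

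*Cyba* (ENSMUSG00000006519, chromosome 8, 122424776 to 122432930, minus strand), the p22phox partner shared by NOX1, NOX2 and NOX4, was the most abundant oxidase transcript in every group. It was at 78.7, 81.7, 109.9, 83.8 and 80.7 FPKM in saline-treated and at 137, 239, 377, 288 and 141 FPKM in Ang II-treated *Plod1*-/- mice. Replicates 1 and 5 were the lowest of the Ang II-treated mice, and both were above the highest saline value. The log2 fold change was 1.33 (SE 0.27, adjusted p = 0.00282 by limma). The annotation also holds a gene model, *Gm20388*, that spans *Cyba* on the opposite strand and has no value in the files.

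The sequences before the annotated starts are shown for the 3 of these 4 genes found in the promoter set used here. Those of *Nox4* and *Sod2* stand beside them, since these genes moved in different directions. Each line holds the 250 bases before the start on the strand of the gene (RefSeq, GRCm38.p6). The GC box GGGCGG and the sequence TGANTCA are in capitals on either strand, and no GC box overlapped a TGANTCA match. TGANTCA reads alike on both strands. For *Cyba* the bases after the start were not found in an annotated transcript, and the start lies outside the annotated gene, so its window is less certain.
Cybb, chrX:9469325-9469574, minus strand: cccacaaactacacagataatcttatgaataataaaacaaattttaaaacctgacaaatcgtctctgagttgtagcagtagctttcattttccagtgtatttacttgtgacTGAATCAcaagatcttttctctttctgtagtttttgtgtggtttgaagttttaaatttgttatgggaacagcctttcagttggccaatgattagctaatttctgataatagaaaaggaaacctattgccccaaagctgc
Ncf1, chr5:134229626-134229875, minus strand: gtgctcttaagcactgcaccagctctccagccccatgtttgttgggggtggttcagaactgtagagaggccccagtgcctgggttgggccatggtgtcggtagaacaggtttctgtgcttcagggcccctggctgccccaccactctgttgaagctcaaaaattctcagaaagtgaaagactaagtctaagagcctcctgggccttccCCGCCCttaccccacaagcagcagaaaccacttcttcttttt
Cyba, chr8:122432941-122433190, minus strand: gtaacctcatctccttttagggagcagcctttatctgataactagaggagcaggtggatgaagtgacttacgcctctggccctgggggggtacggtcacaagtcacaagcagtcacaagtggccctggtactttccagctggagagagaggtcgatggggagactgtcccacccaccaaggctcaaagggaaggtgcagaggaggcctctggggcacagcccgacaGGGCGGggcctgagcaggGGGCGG
Nox4, chr7:87246399-87246648, plus strand: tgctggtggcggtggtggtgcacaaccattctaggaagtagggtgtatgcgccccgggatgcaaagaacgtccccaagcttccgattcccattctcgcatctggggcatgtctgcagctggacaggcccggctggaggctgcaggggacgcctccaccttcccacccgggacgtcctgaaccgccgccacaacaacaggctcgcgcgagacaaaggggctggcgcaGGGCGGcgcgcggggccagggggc
Sod2, chr17:13007589-13007838, plus strand: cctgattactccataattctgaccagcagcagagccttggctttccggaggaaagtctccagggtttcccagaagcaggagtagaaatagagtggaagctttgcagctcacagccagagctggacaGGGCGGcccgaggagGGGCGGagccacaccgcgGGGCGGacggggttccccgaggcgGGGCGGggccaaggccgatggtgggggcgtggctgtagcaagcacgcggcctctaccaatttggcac

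A promoter entry was found for 7 of the 9 genes, all but *Ncf4* and *Sod3*. The window of *Cybb* held 34% G and C, 1 CpG and no GC box, and that of *Ncf1* 54.4% G and C, 2 CpG and 1 GC box. *Nox4* had 67.2% G and C with 20 CpG, and *Sod2* had 63.6% with 15 CpG and 4 GC boxes. The median over all promoters was 52.4% G and C and 6 CpG. GGGCGG was found in 5 of the 7 windows (*Ncf1*, *Cyba*, *Nox4*, *Sod1* and *Sod2*) and in 32.7% of 32851 promoters, and TGANTCA in *Cybb* alone and in 6.75% of promoters. The purine-rich core GAGGAA, searched as a PU.1 type motif, occurred in the *Sod2* and *Nox1* windows and in 23.3% of promoters. Only this exact string was searched, so other forms of such a motif would be missed. TGACNNNGC, the antioxidant response element, occurred in *Sod1* alone and in 10.2%. These matches are descriptions of the letters in these windows.

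**Figure D2:**
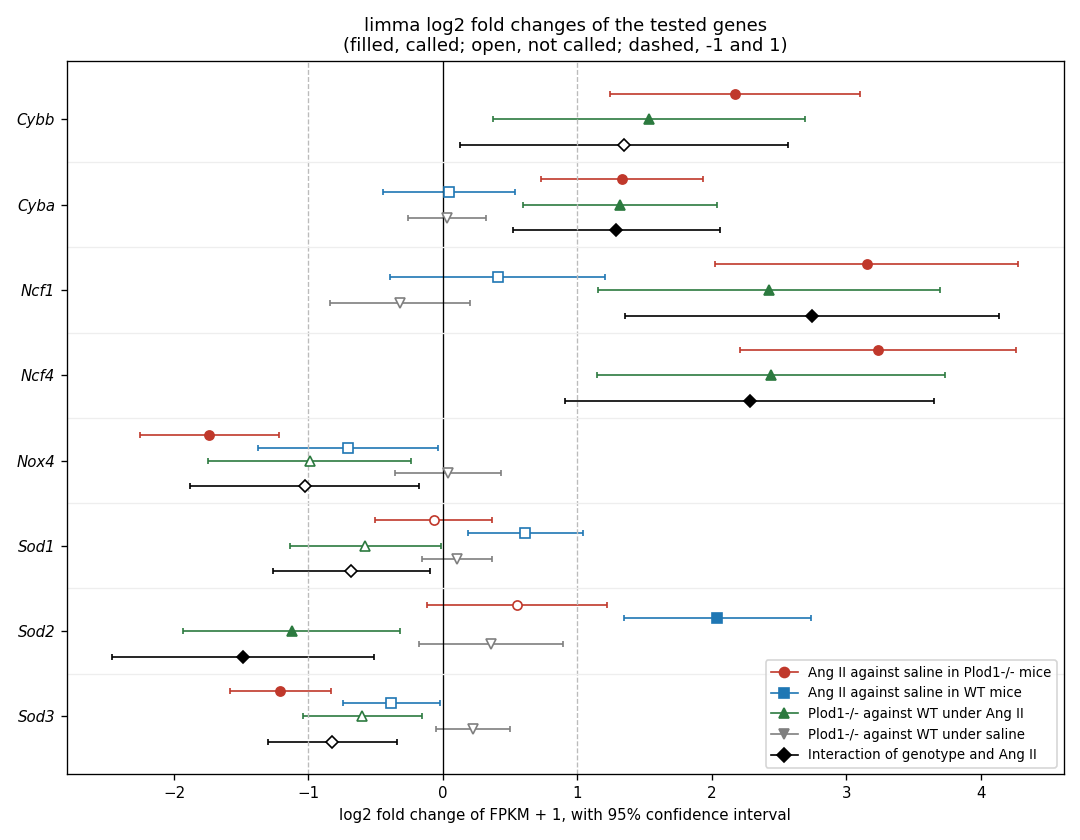
log2 fold changes of the 8 tested genes with 95% confidence intervals from limma in the 5 comparisons, with filled symbols for called genes and dashed lines at -1 and 1. *Cybb* and *Ncf4* have no WT or saline value because they did not pass the filter there. Apart from the phagocyte oxidase genes, *Nox4* and *Sod3* lie left of -1 for Ang II in *Plod1*-/- mice and *Sod2* lies right of 1 for Ang II in WT mice.

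Macrophage and neutrophil markers moved with the phagocyte oxidase genes. All 10 macrophage markers were called higher under Ang II in *Plod1*-/- mice, and their summed FPKM was 92.4 to 384 under saline and 873 to 4830 under Ang II, lowest in replicate 1 (873) and highest in replicate 3 (4830), as for the oxidase genes. Of the 10 neutrophil markers 5 were tested and called higher, and the sum of all 10 ran from 1.57 to 3.75 under saline and from 158 to 727 under Ang II. With saline sums this low, most of the tested neutrophil markers needed the Ang II-treated mice to pass the filter. Their calls were thus largely set by it. No marker of either list was at 0 in all mice of a group, although the granule genes *Camp* and *Ltf* stayed at group means of 0.23 and 0.32 FPKM under Ang II. Their part in the rise of *Cybb*, *Ncf1*, *Ncf4* and *Cyba* was not tested.

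Set against the macrophage marker sum of the same mouse, the 3 phagocyte-specific genes did not behave alike. *Cybb* per 1000 FPKM of macrophage markers had a median of 3.09 under saline and 2.43 under Ang II in *Plod1*-/- mice, with overlapping ranges (2.21 to 4.08 and 1.30 to 3.36). *Ncf1* was at 6.88 and 8.19, also with overlap. *Ncf4* was at a median of 4.67 (3.19 to 5.06) under saline and 6.71 (5.54 to 7.74) under Ang II, without overlap. These ratios were chosen after the values were seen and carry no test.

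*Nox4* (ENSMUSG00000030562, chromosome 7, 87246096 to 87398710, plus strand) moved the other way. It was at 42.4, 29.2, 34.9, 37.7 and 44.9 FPKM in saline-treated *Plod1*-/- mice and at 10.9, 19.8, 7.70, 7.47 and 10.2 FPKM under Ang II. All Ang II-treated mice were below the saline range, with replicate 2 nearest to it. The log2 fold change was -1.74 (SE 0.23, adjusted p = 2.83e-04 by limma). Smooth muscle markers moved with it, since 6 of 8 were called lower and their summed FPKM was 15081 to 20757 under saline and 2327 to 16992 under Ang II. The 16992 was that of replicate 1, inside the saline range, while *Nox4* in the same mouse was 10.9 FPKM. *Nox4* per 1000 FPKM of smooth muscle markers had medians of 1.94 under saline and 1.98 under Ang II, but under Ang II it ran from 0.641 in replicate 1 to 4.68 in replicate 2. Since *Acta2* made up most of the marker sum in saline-treated WT mice, this ratio may largely reflect that gene. The part of these markers in the fall of *Nox4* was not tested.

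**Figure D3:**
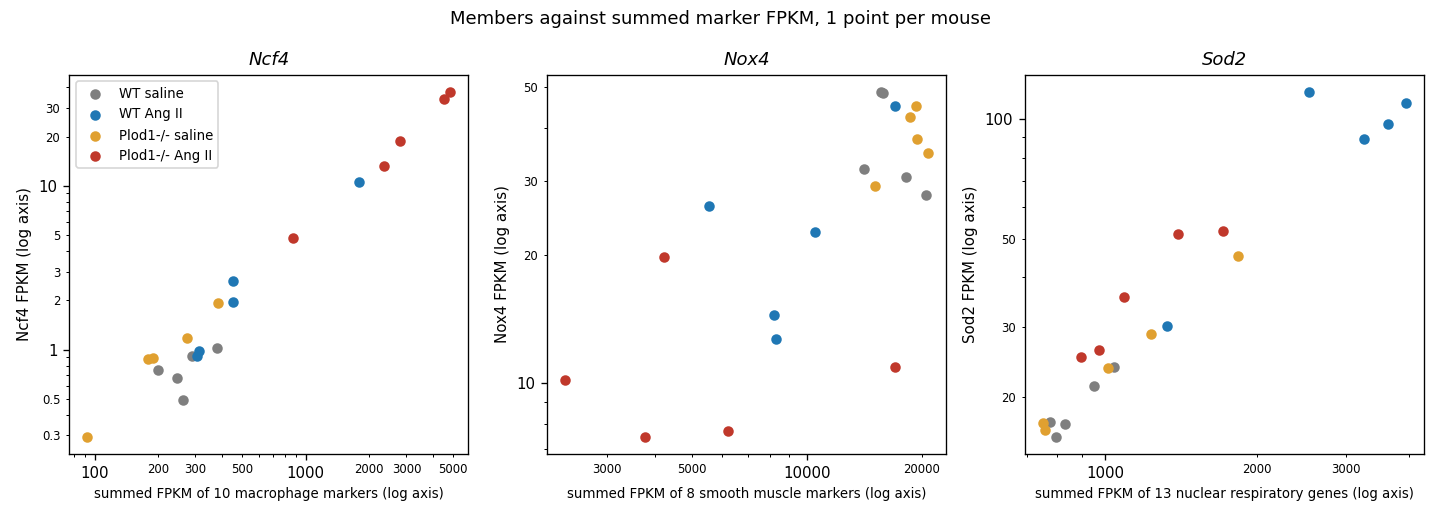
FPKM of *Ncf4*, *Nox4* and *Sod2* in each of the 20 mice against the summed FPKM of 10 macrophage markers, 8 smooth muscle markers and 13 nuclear respiratory genes, on log axes and coloured by group. The *Plod1*-/- Ang II mouse at the lower right of the *Nox4* panel is replicate 1, with 16992 summed FPKM of smooth muscle markers.

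*Nox1* (ENSMUSG00000031257, chromosome X, 134086421 to 134221956, minus strand), the oxidase of colon epithelium that is also found in smooth muscle, was close to the lowest values the libraries held. In 9 of 20 mice it was within 25% of its own lowest value, at 0.0101 to 0.0122 FPKM, and in the other 11 it was at 0.0318 to 0.209 FPKM. The low and the higher values occurred in all 4 groups. It passed no filter, and two-sided exact permutation tests gave p-values from 0.413 to 0.794 in the 4 comparisons. Its locus overlaps *Cstf2*, *Arl13a* and *Xkrx*, which adds to the uncertainty of so low a value.

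The balance among the catalytic genes therefore differed between groups. *Nox4* made up 97.2% to 99.2% of the summed FPKM of *Cybb*, *Nox1* and *Nox4* in saline-treated WT mice and 97.2% to 99.0% in saline-treated *Plod1*-/- mice. In Ang II-treated WT mice it made up 79.2%, 94.0%, 96.5%, 97.9% and 92.1%, and in Ang II-treated *Plod1*-/- mice 89.0%, 73.6%, 39.4%, 42.3% and 56.2%. *Cybb* accounted for 60.1% in replicate 3 and 57.6% in replicate 4 of the latter, and exceeded *Nox4* in those 2 mice only. *Cyba* per FPKM of the 3 catalytic genes ran from 1.77 to 3.06 under saline and from 7.81 to 19.3 under Ang II in *Plod1*-/- mice, without overlap.

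**Figure D4:**
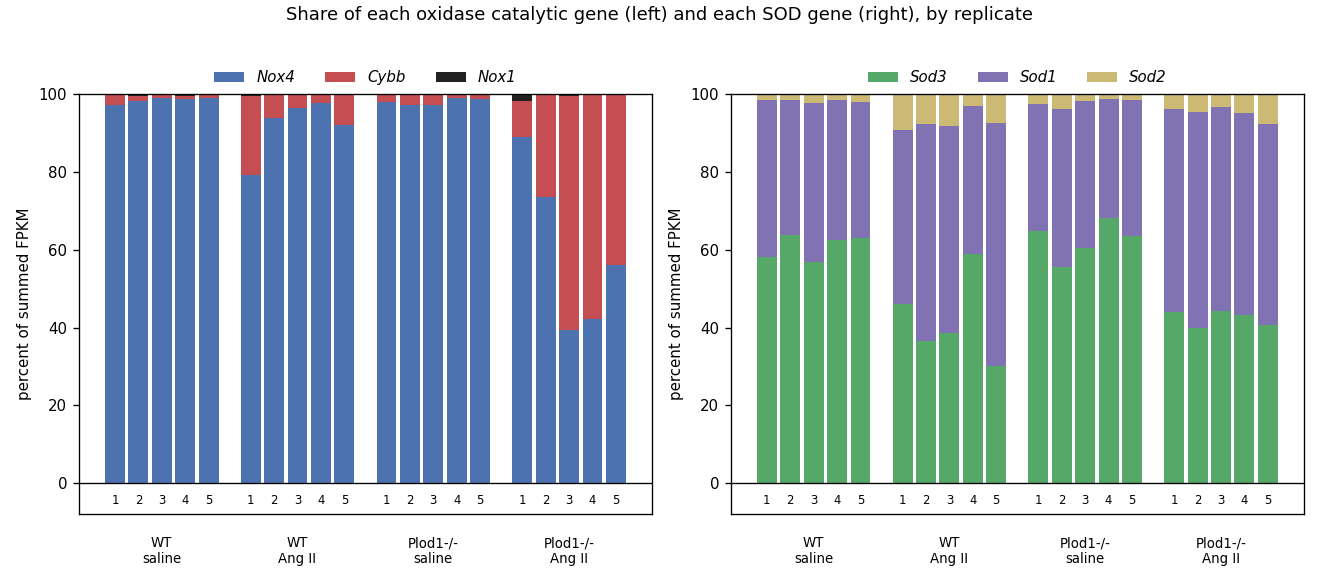
Percent of summed FPKM taken by *Nox4*, *Cybb* and *Nox1* (left) and by *Sod3*, *Sod1* and *Sod2* (right) in each mouse, with replicate numbers under the bars. *Nox4* takes at least 97.2% in every saline-treated mouse and a median of 56.2% in Ang II-treated *Plod1*-/- mice, while *Sod3* takes 39.8% to 44.3% in the latter.

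Among the dismutases, *Sod3* (ENSMUSG00000072941, chromosome 5, 52363791 to 52371418, plus strand), the extracellular enzyme, fell in *Plod1*-/- mice. It was at 742, 657, 892, 888 and 717 FPKM under saline and at 299, 459, 353, 317 and 272 FPKM under Ang II. No Ang II-treated mouse reached the saline range. The log2 fold change was -1.21 (SE 0.17, adjusted p = 3.63e-04 by limma). The 6 smooth muscle markers called lower moved with it, and *Sod3* per 1000 FPKM of all 8 markers had a median of 42.9 (37.2 to 45.7) under saline and 83.9 (17.6 to 116.8) under Ang II, lowest in replicate 1 and above the saline range in the other 4 mice. The part of these markers in the fall of *Sod3* was not tested. *Sod1* (ENSMUSG00000022982, chromosome 16, 90220754 to 90226329, plus strand), the cytosolic enzyme, was at 374 to 562 FPKM under saline and at 346 to 641 FPKM under Ang II, with a log2 fold change of -0.07 (95% interval -0.50 to 0.37, adjusted p = 0.807 by limma). *Sod2* (ENSMUSG00000006818, chromosome 17, 13006846 to 13040063, plus strand), the mitochondrial enzyme, was at 16.4 to 45.2 FPKM under saline and 25.1 to 52.4 FPKM under Ang II, with 0.55 as the log2 fold change (95% interval -0.12 to 1.22, adjusted p = 0.163 by limma). The summed SOD FPKM had a median of 1181 under saline and 735 under Ang II in *Plod1*-/- mice, with overlapping ranges (1130 to 1477 and 669 to 1153). *Sod1* shares 650 bases with *Scaf4* on the opposite strand, which reached at most 12.4 FPKM.

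In WT mice the same infusion gave another pattern, in which *Sod2* rose and was the only one of 6 tested genes to be called, against 8.66% of 11994 genes tested (6.38% higher and 2.28% lower). *Sod2* was at 17.1, 15.9, 21.2, 17.3 and 23.8 FPKM under saline and at 117, 109.6, 89.3, 30.2 and 97.2 FPKM under Ang II. Replicate 4 was much lower than the other Ang II-treated mice and still above the saline range, and groups did not overlap in 17.3% of all genes tested. The log2 fold change was 2.04 (SE 0.32, adjusted p = 0.00206 by limma). *Sod1* was at 443, 392, 385, 415 and 398 FPKM under saline and at 579, 814, 589, 399 and 838 FPKM under Ang II, where replicate 4 was inside the saline range. Its log2 fold change of 0.61 (SE 0.19, adjusted p = 0.0303 by limma) was under the size needed for a call, and 38% of all genes had an adjusted p-value below 0.05. *Sod3*, at 533 to 722 FPKM under saline and 401 to 616 FPKM under Ang II, had a log2 fold change of -0.39 (SE 0.16, adjusted p = 0.0813 by limma).

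Nuclear genes of the respiratory chain and brown adipocyte markers moved with *Sod2* in WT mice. Of 13 nuclear respiratory genes 12 were called higher, and their summed FPKM was 778 to 1041 under saline and 1327 to 3947 under Ang II. Replicate 4, the mouse with the lowest *Sod2* and *Sod1* under Ang II, had the lowest sum of respiratory genes (1327) and of brown adipocyte markers (605) and the highest of smooth muscle markers (17074). *Sod2* per 1000 FPKM of respiratory genes was 19.9 to 22.9 under saline and 22.7 to 46.1 under Ang II, where 46.1 was that of replicate 1. In *Plod1*-/- mice this ratio was 21.7 to 24.7 under saline and 26.9 to 36.7 under Ang II, without overlap, although *Sod2* itself was not called there. The part of these genes in the rise of *Sod2* was not tested.

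The phagocyte oxidase genes in Ang II-treated WT mice were highest in replicate 1, and the values against saline were lower without it. *Cybb* was at 0.792, 0.439, 0.343, 0.269 and 0.398 FPKM under saline and at 6.70, 0.898, 0.807, 0.978 and 1.07 FPKM under Ang II, all above the highest saline value. It did not pass the filter, and a two-sided exact permutation test gave p = 0.00794, the smallest value that 5 against 5 mice allow, for a difference of 0.83 in mean log2(FPKM + 1). Without replicate 1 the difference was 0.43 (exact permutation p = 0.0159), and the remaining Ang II-treated mice were still above all saline values. *Ncf4* was at 0.494 to 1.02 FPKM under saline and at 10.5, 1.95, 0.988, 0.914 and 2.62 FPKM under Ang II, with a difference of 0.96 (exact permutation p = 0.0397). Without replicate 1 it was 0.52 (exact permutation p = 0.0794). This p-value was found in 6 of the cases with 1 mouse left out, so it was not particular to replicate 1. The smaller difference was, since leaving out any other mouse gave differences from 0.90 to 1.16.

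*Ncf1*, at 1.36 to 2.41 FPKM under saline and at 11.7, 2.35, 1.69, 1.91 and 2.09 FPKM under Ang II, had a log2 fold change of 0.41 (SE 0.37, adjusted p = 0.382 by limma), which became -0.01 without replicate 1. *Cyba*, at 68.5 to 108 FPKM under saline and at 159, 77.4, 62.8, 82.0 and 79.3 FPKM under Ang II, had one of 0.05 (SE 0.22, adjusted p = 0.877 by limma), which became -0.17 without that mouse. The macrophage marker sum of replicate 1 was 1793, against 304 to 454 in the other 4 Ang II-treated WT mice, and its neutrophil marker sum was 220.2, against 7.37 to 54.0. The oxidase values without it are those given above.

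*Nox4* in WT mice was at 27.8, 30.6, 48.2, 32.0 and 48.6 FPKM under saline and at 26.1, 14.5, 22.7, 45.0 and 12.7 FPKM under Ang II. Only replicate 4, which had 17074 summed FPKM of smooth muscle markers against 5532 to 10513 in the other 4, was inside the saline range. The log2 fold change was -0.71 (SE 0.31, adjusted p = 0.0836 by limma), and it was -1.19 (adjusted p = 0.00112) when limma gave each mouse its own weight.

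Between the genotypes under Ang II, 8 of the 9 genes were tested and 5 were called, *Cybb*, *Ncf1*, *Ncf4* and *Cyba* higher and *Sod2* lower in *Plod1*-/- mice, against 11.1% of 12356 genes tested (7.45% higher and 3.67% lower). This comparison shares its mice with both Ang II comparisons above. The median log2 fold change of the 8 genes was 0.37, beside 0.12 for all genes tested. With quantile normalization the latter was -0.04 and the split of all calls went from 920 higher and 453 lower to 733 and 632. The log2 fold changes were 2.42 for *Ncf1* (SE 0.58, adjusted p = 0.0116 by limma), 2.44 for *Ncf4* (SE 0.59, adjusted p = 0.0121 by limma) and 1.32 for *Cyba* (SE 0.33, adjusted p = 0.0137 by limma). The groups overlapped in each of these genes, with WT replicate 1 above *Plod1*-/- replicate 1 and, for *Cyba*, also above replicate 5. The groups overlapped in the other 6 genes too, whereas 15.1% of genes tested showed no overlap (10.4% higher and 4.62% lower). Without WT replicate 1 the log2 fold changes of *Ncf1*, *Ncf4* and *Cyba* were 2.84, 2.88 and 1.53. *Cybb* and *Ncf4* needed the values of the *Plod1*-/- mice, where both were higher, to pass the filter here. *Cybb* had a log2 fold change of 1.53 (SE 0.53, adjusted p = 0.0474 by limma). This call was lost when any 1 of replicates 2 to 5 of either group was left out (adjusted p from 0.0778 to 0.111 by limma) and held without replicate 1 of WT (adjusted p = 0.0109) or of *Plod1*-/- mice (adjusted p = 0.00502). It was also lost with no filter (adjusted p = 0.125), with quantile normalization (0.0601) and with mitochondrial genes left out (0.0571).

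*Sod2* was at 30.2 to 117 FPKM in WT and 25.1 to 52.4 FPKM in *Plod1*-/- mice under Ang II, and 4 of the 5 WT mice were above all *Plod1*-/- mice. It was lower by a log2 fold change of -1.13 (SE 0.37, adjusted p = 0.0388 by limma). It lost the call without WT replicate 1, 2, 3 or 5 or *Plod1*-/- replicate 1, 3 or 4 (adjusted p from 0.0649 to 0.0924 by limma), and with no filter (0.103). In this comparison 12 of 13 nuclear respiratory genes and 5 of 6 tested brown adipocyte markers were also called lower. *Nox4* had a log2 fold change of -0.99 (SE 0.34, adjusted p = 0.0483 by limma), just under the size needed for a call. It was called without WT replicate 5 (-1.18) or *Plod1*-/- replicate 2 (-1.20), with the pseudocount of 0.1 (-1.05), with quantile normalization (-1.14) and with mitochondrial genes left out (-1.09). In the other 8 cases with 1 mouse left out its adjusted p-value was above 0.05 (0.0503 to 0.114 by limma). An adjusted p-value below 0.05 alone was reached by 31.2% of genes tested. *Sod3* had a value of -0.60 (SE 0.20, adjusted p = 0.0422 by limma) and *Sod1* one of -0.58 (SE 0.25, adjusted p = 0.105 by limma). With 1 mouse left out the adjusted p-value of *Sod3* ran from 0.0229 to 0.0982 by limma.

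The question whether the response to Ang II itself differed between the genotypes was tested as an interaction over all 20 mice. Of 8 genes tested, 4 were called, against 16.1% of 13263 genes tested (9.69% higher and 6.36% lower). The log2 response in *Plod1*-/- mice exceeded that in WT mice by 2.75 for *Ncf1* (SE 0.67, adjusted p = 0.00413 by limma), by 2.28 for *Ncf4* (SE 0.66, adjusted p = 0.0115 by limma) and by 1.29 for *Cyba* (SE 0.37, adjusted p = 0.0109 by limma). For *Sod2* the difference was -1.49 (SE 0.47, adjusted p = 0.0181 by limma). These 4 calls held whichever mouse was left out. *Sod3* had a difference of -0.82 (SE 0.23, adjusted p = 0.00942 by limma), under the size for a call, and 37.8% of genes tested had an adjusted p-value below 0.05.

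*Cybb* (1.35, SE 0.58, adjusted p = 0.0740 by limma), *Nox4* (-1.03, SE 0.41, adjusted p = 0.0534 by limma) and *Sod1* (-0.68, SE 0.28, adjusted p = 0.0596 by limma) did not pass. *Cybb* passed without WT Ang II replicate 1 (1.74, adjusted p = 0.00851 by limma) and without *Plod1*-/- Ang II replicate 1 (1.79, adjusted p = 0.00342 by limma), 1 of the libraries with *Xist* RNA, and with weights per mouse (1.99, adjusted p = 1.08e-04 by limma). To pass the filter here, *Cybb* needed the values of Ang II-treated *Plod1*-/- mice, the group where its mean was highest. Its interaction values and these refits thus carry the same limit as its calls above. *Nox4* passed when any 1 of saline-treated WT replicates 3 and 5, Ang II-treated WT replicates 2 and 5 and Ang II-treated *Plod1*-/- replicate 2 was left out (adjusted p from 0.0160 to 0.0439 by limma). Quantile normalization moved the median log2 difference of all genes from 0.12 to -0.04 and the split of all calls from 1285 higher and 844 lower to 981 and 1146, but not the direction of any of the 8 genes, and *Nox4* was called with it (-1.17), as with mitochondrial genes left out (-1.14).

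Under saline the genotypes were not separated for any of the 9 genes. Of 6 tested 0 were called by limma, 0 had an unadjusted p-value below 0.05, as 3251 of 11999 genes tested had, and the smallest was 0.1001 for *Sod3*, where 0.767% of 11999 genes tested were called and 6.55% had an adjusted p-value below 0.05. The groups overlapped in all 9 genes, while 9.52% of genes tested showed no overlap (4.22% higher and 5.3% lower). *Sod3* was at 533 to 722 FPKM in WT and 657 to 892 FPKM in *Plod1*-/- mice, and its log2 fold change was 0.22 (95% interval -0.05 to 0.50). The intervals were -0.35 to 0.43 for *Nox4*, -0.26 to 0.32 for *Cyba*, -0.84 to 0.20 for *Ncf1*, -0.15 to 0.36 for *Sod1* and -0.17 to 0.90 for *Sod2*. For *Cybb* and *Ncf4*, which did not pass the filter, two-sided exact permutation tests gave p = 0.278 and p = 0.492.

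Other genes of the oxidase system were followed in a list of 13, of which 6 were tested in *Plod1*-/- mice and 2 were called higher under Ang II. Of all genes tested there, 8.38% were called higher. *Rac2*, the RAC GTPase of blood cells, went from 2.12 to 30.4 FPKM in group means (log2 fold change 3.17, SE 0.51, adjusted p = 7.37e-04 by limma). *Nrros*, which encodes a protein that binds NOX2 and lowers its activity, rose by 2.80 on the log2 scale. *Rap1a* (0.38) and *Cybc1*, the chaperone of the gp91phox and p22phox pair (0.37), had adjusted p-values below 0.05, as had 43.8% of all genes tested, and were under the size for a call. *Rac2* and *Nrros* were also called higher than in WT under Ang II and in the interaction. In WT mice only *Poldip2*, which encodes a NOX4-binding protein, was called, with a log2 fold change of 1.04 (SE 0.19, adjusted p = 0.00340 by limma). *Noxo1*, *Noxa1*, *Nox3* and the *Duox* genes were too low to test within either genotype.

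Enzymes that remove the hydrogen peroxide made by NOX4 and the SODs were followed in a list of 17, all tested. In *Plod1*-/- mice 5 were called higher and 0 lower, against 8.38% and 5.51% of all genes tested. They were *Gpx3* (2.73), *Gpx7* (1.78), *Gsr* (1.72), *Prdx5* (1.10) and *Txnrd1* (1.04), with a list median of 0.59 beside 0.05 for all genes. In WT mice 6 were called higher, against 6.38% of all genes tested. These were *Gpx3* (2.59), *Cat* (2.07), *Prdx3* (1.46), *Gpx4* (1.45), *Txnrd2* (1.34) and *Prdx5* (1.11), with a list median of 0.37 beside -0.14 for all genes. *Prdx3* and *Txnrd2*, which like SOD2 work in mitochondria, were thus called in WT and not in *Plod1*-/- mice, and the difference was called for *Txnrd2* (interaction -1.03, SE 0.30, adjusted p = 0.0113 by limma) but not for *Prdx3* (-0.86, SE 0.35, adjusted p = 0.0565 by limma). *Gsr*, *Gpx7*, *Txnrd1* and *Txn1* were called with a larger response in *Plod1*-/- mice, and *Gpx4* with a smaller one.

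Of 8 tested genes of the NRF2 response, which answers oxidants, 2 were called higher in *Plod1*-/- mice, against 8.38% of all genes tested. *Hmox1*, the heme-degrading enzyme, went from 10.4 ± 3.12 to 1023 ± 578 FPKM (SD, n = 5) and *Gclm*, a glutathione synthesis gene, had a log2 fold change of 1.04. *Nqo1* was lower (-0.78, adjusted p = 0.00599 by limma) and under the size for a call. Red cell markers moved with *Hmox1*, since all 5 tested were called higher and their sum ran from 60.0 to 1524 under saline and from 764 to 9718 under Ang II. Their part was not tested. Of the 3 tested genes that supply copper to SOD1 and SOD3, *Slc31a1*, the copper importer, was called higher in *Plod1*-/- mice (2.09, SE 0.29, adjusted p = 3.18e-04 by limma), and *Ccs*, the chaperone of SOD1, had an interaction value of -0.77 (SE 0.17, adjusted p = 0.00189 by limma), under the size for a call. Of 5 tested genes for other oxidant sources, among them *Nos3* and *Xdh*, 0 were called by limma within either genotype. *Maob*, which makes peroxide from amines, moved by -0.55 in *Plod1*-/- mice and by 0.54 in WT mice on the log2 scale (adjusted p = 0.0495 by limma and 0.00525), and the interaction was called for it and for *Aox1*. The unadjusted p-value was below 0.05 for 1 of the 5 genes in *Plod1*-/- mice and for all 5 in WT mice, beside 6390 of 12333 and 6039 of 11994 genes tested.

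The genes whose profiles over the 20 mice were most like those of the 9 were found by the root mean square difference of centred log2(FPKM + 1), among 13263 genes. For *Cybb* they were *Ptafr* (0.21), *Pik3ap1* (0.22) and *Pik3r5* (0.22), where the spread of *Cybb* itself was 1.12. *Ncf1* was nearest to *Nfam1*, *Nckap1l* and *Fermt3* (0.21 to 0.22), and *Ncf4* to *Rac2* (0.22), *Ptpn6* and *Cd48*. *Cyba* was nearest to *Sh3bgrl3* (0.16), *Cmtm7* and *Cstb*, and *Nox4* to *Gabra3* (0.23), *Fibin* and *Cys1*. *Sod1* lay nearest to *Ndufa7* (0.14), *Gm8566* and *Atp5h*, *Sod2* to *Cluh* (0.19), *Uqcrfs1* and *Etfa*, and *Sod3* to *Itgb5* (0.18), *Gstm2* and *Gm6665*. Among the 9 themselves the closest pair was *Ncf1* and *Ncf4* (0.34), followed by *Cybb* and *Ncf1* (0.44). *Sod3* and *Nox4* were 0.47 apart, where their own spreads were 0.51 and 0.83. These distances describe levels that share groups, libraries and cell content, and carry no test.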

How the data were processed

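RNA from 20 abdominal aortas was sequenced on an Illumina HiSeq from TruSeq libraries that do not mark strand. The authors removed ribosomal RNA reads, aligned with HISAT2, assembled with stringtie and deposited FPKM values normalised between libraries by cuffquant and cuffnorm, 1 file per mouse with 43422 genes. The submitters' processing notes name Bowtie2 2.2.3, HISAT2 2.1.0, HTSeq 0.6.0 and mm10, and the annotation release is not given in the sources used here. No counts were used, so the depth is unknown and no counting intervals are given. The authors' own tests for differential expression, by edgeR, are not used here.

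Gene IDs were matched to GENCODE mouse release 21, which gave 43226 a symbol. limma 3.58.1 (R 4.3.3, variance trend) was fitted to log2(FPKM + 1) over all genes with at least 1 FPKM in at least 5 of the mice compared, with Benjamini-Hochberg adjustment. Calls were made at adjusted p-values under 0.05 with log2 fold changes larger than 1 either way. Each comparison used its own 2 groups, and the interaction used all 20 mice. Genes below the filter were compared by two-sided exact permutation tests (scipy 1.17.1). The fits were tested on simulated data. Replicates are separate mice. There was no evidence that replicate numbers pair mice. Same-numbered deviations correlated from -0.33 to 0.42, which cannot exclude pairing.

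Genes named were the 9 genes whatever their values, *Plod1* and *Xist* as checks, members of the lists, genes that overlap the 9 genes (chosen after values were seen), and the 3 nearest profiles of each of the 9 genes above the filter. The 9 genes and all lists were chosen with earlier results of these data known. Marker lists beside those in the text were endothelial (2 of 8 tested called higher in *Plod1*-/- and 3 of 8 in WT mice under Ang II), fibroblast (2 of 8 and 0 of 8), white adipocyte (4 of 7 and 6 of 6) and lymphocyte (0 of 1 in *Plod1*-/- mice, none tested in WT mice), with 0 called lower. Alternatives were the pseudocount (0.1), no filter, quantile normalization, no variance trend, weights per mouse, mitochondrial genes left out, all groups in 1 fit, the replicate block and leaving out each mouse. 1 gene of the oxidase list is not reported here.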

Additional observations from a re-analysis of the deposited data

Results flagged for a closer look

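In 8 of 36 groups of 5 mice, 1 mouse lay far from the other 4, by the gap to the next mouse over the range of FPKM. Chance gives about 1 in 20 for normally distributed values. All 8 were high values on the FPKM scale without logarithm, so that rate may not hold here. Replicate 1 of the Ang II-treated WT mice was such a mouse for 5 genes, at 6.70 FPKM for *Cybb* (next highest 1.07), 159 for *Cyba* (82.0), 11.7 for *Ncf1* (2.35), 10.5 for *Ncf4* (2.62) and 0.145 for *Nox1* (0.0322). These 5 values come from 1 library and are not independent. Replicate 3 of the saline-treated *Plod1*-/- mice had 109.9 FPKM of *Cyba* (next highest 83.8). Replicate 2 of the Ang II-treated *Plod1*-/- mice had 19.8 FPKM of *Nox4* (10.9) and 641 FPKM of *Sod1* (417).

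The response to Ang II differed between the genotypes in 5 genes by the limma interaction test at an adjusted p-value below 0.05, which 37.8% of 13263 genes tested had. The log2 difference was 2.75 for *Ncf1*, 2.28 for *Ncf4*, 1.29 for *Cyba*, -1.49 for *Sod2* and -0.82 for *Sod3*, the last under the size for a call.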

How the results depend on the processing

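The 9 genes had 36 values from limma, and 19 of these held in every refit in which the gene could be tested. Of 780 refits, 718 kept direction and side of the threshold, 25 lost a call, 21 gained one and 16 changed sign. The permutation tests of genes below the filter, *Nox1* among them, are not in these counts. *Cybb* in *Plod1*-/- mice, 1 of the 19, did not pass the filter when any Ang II-treated mouse was left out. With the adjusted p-value alone the counts of called genes were 5408 for Ang II in *Plod1*-/- mice, 4560 in WT mice, 3849 between genotypes under Ang II, 786 under saline and 5017 for the interaction. Weights per mouse gave 2134 between genotypes under Ang II. Under saline (92 called) the pseudocount of 0.1 gave 149, no filter 41, all groups in 1 fit 52, both libraries with *Xist* RNA left out 60, and leaving out 1 mouse 38 to 104. The replicate block, with no evidence that numbers pair the mice, cost *Cybb* (limma adjusted p = 0.131), *Cyba* (0.0514), *Ncf1* (0.0528), *Ncf4* (0.0551) and *Sod2* (0.0545) their calls between genotypes under Ang II, and no other call of the 9 genes was lost under it. All values that changed sign were uncalled. With weights per mouse *Cyba* in WT mice was -0.0242 and *Nox4* under saline -0.0701, and *Nox4* under saline was -0.0257 without the *Xist* libraries. With 1 mouse left out, *Sod1* in *Plod1*-/- mice ran from -0.22 to 0.0235, *Cyba* in WT mice from -0.17 to 0.16, *Ncf1* in WT mice from -0.0091 to 0.55, *Cyba* under saline from -0.0545 to 0.12 and *Nox4* under saline from -0.0559 to 0.14. *Nox1*, near the lowest values measured, was -0.0117 with quantile normalization, -0.0106 without the *Xist* libraries and -0.0295 to 0.0357 without 1 mouse for Ang II in *Plod1*-/- mice. Between genotypes under Ang II it was -0.0028, -0.0152 and -0.0152 to 0.0654, and under saline 0.0080 with quantile normalization. *Ncf4* in WT mice ran from 0.52 to 1.16 with 1 mouse left out, and its exact permutation p was 0.0794 in 6 of those cases. The refits of genes below the filter were chosen after seeing the data. The causes of these changes were not tested.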
